A study of Caenorhabditis elegans with 6 samples.

Results

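MicroRNAs of a mutant strain of the nematode Caenorhabditis elegans were compared between 2 slots of the same space mission: a static slot, where worms were nearly weightless, and a centrifuge slot spun to 1 g. The comparison rests on 2 of the 6 arrays of the series, 1 array per condition, and both stand in the same raw table. Of 154 worm miRNA probes, 91 were taken because the median of their 4 spots exceeded the 95th percentile of the spots of the control probes on at least 1 of both arrays. That limit was 97 in static flight and 75.25 in centrifuge flight, in units of spot intensity minus local background.

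The worms of the static slot received a radiation dose of 1.92 mGy, with gravity peaks up to 0.01 g; those of the 1 g centrifuge slot received 2.27 mGy. The dose thus differed along with gravity, and their parts cannot be told apart. Both groups were populations of about 100000 dauer larvae in a container, flown for 16.5 days at 23 °C, collected 7 h after landing and labelled with the dye Hy3 from 1 µg of total RNA. The labels give the genotype as ced-1(n1995) I, a mutation in the receptor that lets cells engulf dying neighbours, and both groups carry it. The strain is named MT4930 in a strain field and LS292 in the titles. LS292 is also known as a strain with a mutation in the dystrophin gene dys-1, so which mutation the worms carried cannot be told from the labels. The dauer stage could not be checked against defining markers, since the arrays measure miRNAs only.

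MicroRNAs are short RNAs that bind messenger RNAs through a seed near their 5′ end and lower their output. In worms, the lin-4 and let-7 families time larval development, and other miRNAs support survival of arrested stages such as the dauer, a non-feeding larva built to outlast stress. Families that share a seed can often replace one another.

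The pair of flight arrays was chosen for close agreement between spots, so the following spread describes that choice. Over worm probes at 200 or more, the median SD of the 4 spots on the log2 scale was 0.29 in static flight (23 probes) and 0.16 in centrifuge flight (45 probes), against 1.58 on the ground array of the mutant (26 probes). The dye reference spots had a median of 3129.5 in static flight and 2893.5 in centrifuge flight, the control probes 53 and 38, and the empty spots 2 and 3. No difference below has a replicate check, because each condition is 1 array. The technical SE given with a difference covers the 4 spots of each array and nothing else, so it does not measure the spread between worm populations.

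Before any scaling, worm miRNAs were dimmer on the static array. A total of 52 worm miRNAs exceeded the limit in static flight and 90 did in centrifuge flight; 51 exceeded it on both. Over these 51 the median intensity was 181.5 in static flight and 620 in centrifuge flight, a ratio of centrifuge over static of 3.42. Of the 51, 37 (72.5%) were lower in static flight by a factor of 2 or more and 1 (1.96%), miR-260, was higher by as much. For 37 of the 51 all 4 static spots lay under all 4 centrifuge spots, and for 2 they lay wholly above. In a bulk sample, fewer cells that express a miRNA and less of it per cell cannot be told apart. With 1 array per condition, a difference between the arrays themselves cannot be told apart from these either.

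The other probes on the arrays, those without a name in the tables used here, did not share this shift on balance. Of 2147 such probes, 386 exceeded the limit on both arrays, with medians of 211.5 in static flight and 219 in centrifuge flight and a median unscaled log2 difference of 0.14. Of these 386, 74 (19.2%) were at least 2-fold lower and 22 (5.7%) higher. Over the 51 worm miRNAs the same median was -1.66. Counted over every probe above the limit on at least 1 array, 43 of 91 worm miRNAs (47.3%) were at least 2-fold lower in static flight, unscaled, against 98 of 611 probes without a name (16%). At least 2-fold higher were 1 worm miRNA (1.1%) and 28 probes without a name (4.58%).

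**Figure D1:**
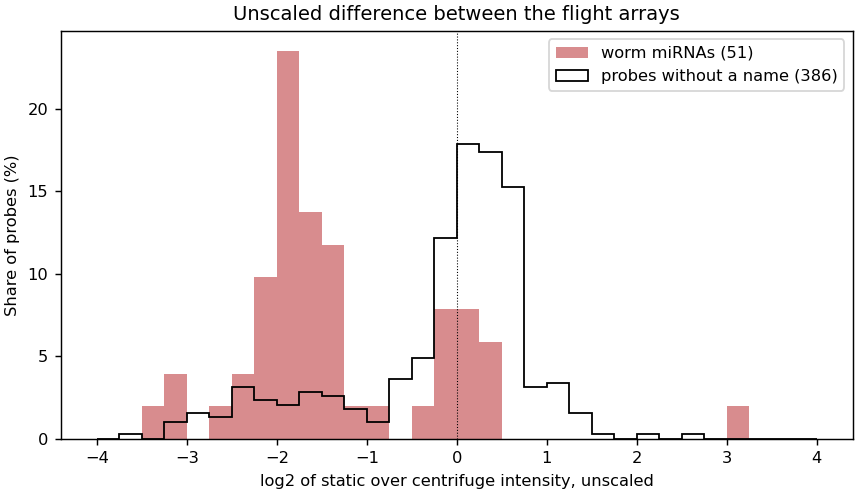
Share of probes (%) by the unscaled log2 of static over centrifuge intensity, for the 51 worm miRNAs (filled) and the 386 probes without a name (line) above the limit on both arrays. Worm miRNAs form a main heap near the median of -1.66 and a smaller one near 0, where most of the probes without a name lie.

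Most of the 51 worm miRNAs were thus displaced by a similar amount and a smaller number were not. A dim miRNA displaced as far would fall under the static limit and out of the 51. In all, 39 miRNAs exceeded the limit in centrifuge flight alone, among them miR-228-5p at 61.5 in static and 203.5 in centrifuge flight. The small shift of the dim members is thus tied to how the 51 were chosen. At a mean level of 200 or more (geometric mean of both arrays) stood 37 miRNAs, 33 of them at least 2-fold lower in static flight, with a median of -1.86. Probes without a name at the same level numbered 207, of which 66 were at least 2-fold lower, with a median of -0.025. Under 200 stood 14 worm miRNAs, with a median of -0.20.

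The order of the bright miRNAs was largely kept. The order of probes on an array reflects how well each probe binds as well as abundance, so only the shift of a probe's rank between the arrays is read here. Across the 91 miRNAs the ranks on both arrays had a Spearman correlation of 0.73, and across the 51 above both limits it was 0.75; the points share the probes, their layout and the labelling method, so the values are a description only. The 10 brightest miRNAs of each array had 8 in common and the 20 brightest had 17. miR-71-5p, which supports lifespan and survival during larval arrest, ranked first on both arrays. Its 4 spots read 3067, 3091, 3684 and 4322 in static flight, against 10117, 10134, 10862 and 10921 in centrifuge flight. miR-81-3p, of the miR-58/bantam family whose members are among the most abundant in the worm, ranked second on both. Its spots read 2351, 2371, 2765 and 2946 in static flight, against 8309, 8336, 9877 and 11168 in centrifuge flight. For both miRNAs the static spots lay wholly below the centrifuge spots.

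**Figure D2:**
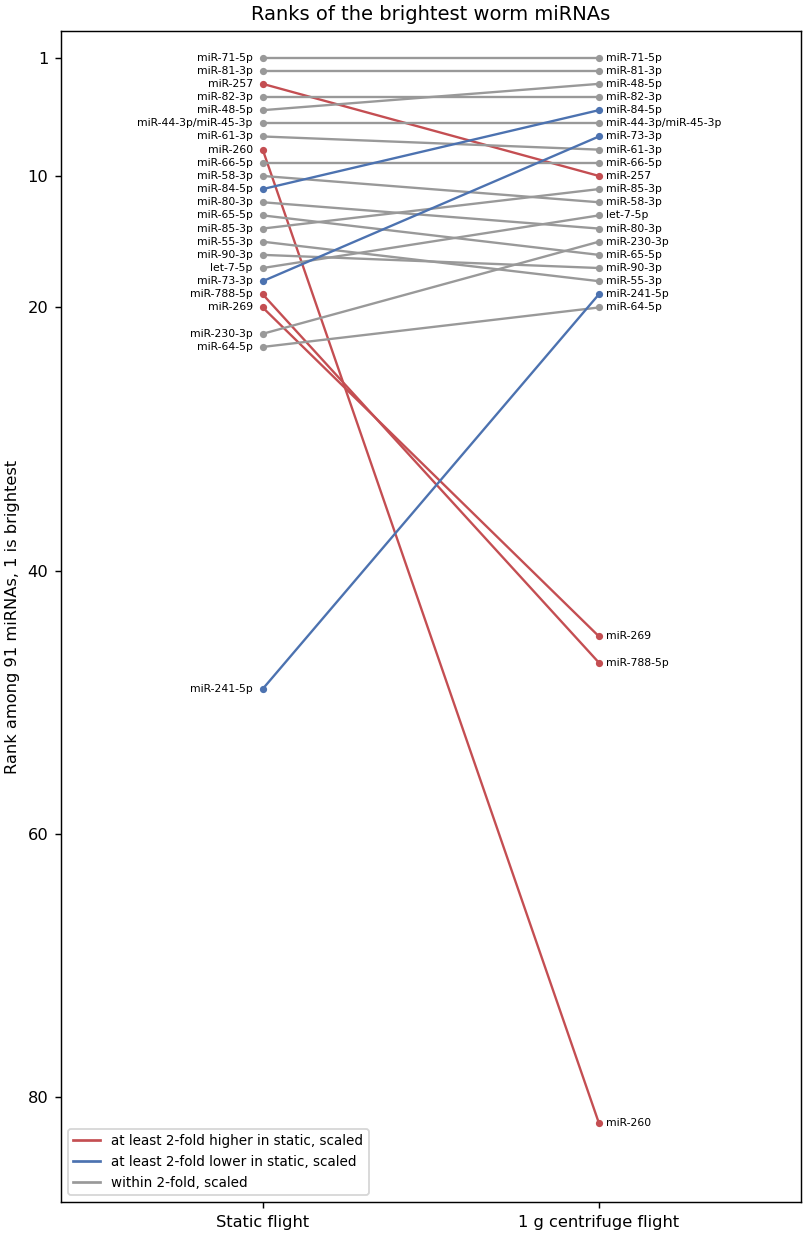
Rank of each miRNA among the 91, with 1 the brightest, in static flight (left) and centrifuge flight (right), for those among the 20 brightest on either array. Grey lines run nearly level; miR-260, miR-257, miR-788-5p and miR-269 stand at better ranks in static flight, and miR-84-5p, miR-73-3p and miR-241-5p at worse ones.

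To compare single miRNAs, each array was divided by its median over the 51 miRNAs and brought to a common level, which multiplied static values by 1.85 and centrifuge values by 0.541. A value under the limit of its array was set to the limit, which became 179 in static flight and 40.7 in centrifuge flight on this scaled level. The scaled level of miR-71-5p was 6261 in static flight and 5680 in centrifuge flight (log2 difference 0.14, technical SE 0.12), and that of miR-81-3p 4746 and 4927 (-0.054, technical SE 0.13). After scaling, 14 of 91 miRNAs (15.4%) were called higher in static flight, meaning a difference of 2-fold or more. Called lower were 3 of 91 (3.3%). The scaled limits of 179 and 40.7 lie over 2-fold apart. A miRNA above the static limit and dim in centrifuge flight was thus called higher, even with a lower unscaled static intensity. A lower call needed a centrifuge value far above the limit. The counts of 14 and 3 therefore do not weigh one direction against the other. With the same scale factors, 351 of 611 probes without a name (57.4%) came out higher and 12 (1.96%) lower. Above the limit on both arrays, 13 of 51 worm miRNAs (25.5%) were called higher and 3 (5.88%) lower, against 309 (80.1%) and 11 (2.85%) of the 386 probes without a name. The factors were set on worm miRNAs alone, and the other probes had nearly equal unscaled medians on both arrays. The large share of other probes called higher thus comes with the scaling. Scaling on the probes without a name instead gave 1 worm miRNA higher and 43 lower. Which scaling is right was not tested. With no scaling the worm split was 1 higher and 43 lower, and that of the 611 other probes 28 and 98.

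The scaled comparison left 37 of the 91 without a direction. These miRNAs exceeded the limit in centrifuge flight alone, and their scaled centrifuge level lay under the scaled static limit. In all, 39 miRNAs exceeded the limit in centrifuge flight alone, at intensities from 76 to 438 with a median of 120, and 1 did so in static flight alone. Nearest above the limit were miR-1019-3p, which read 60 in static flight and 76 in centrifuge flight, miR-785 (85 and 76.5) and miR-1830-5p (100 and 69.5). Nearest below it were miR-1819-3p (96.5 and 43.5), miR-268 (58 and 72.5) and miR-272 (68 and 71).

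**Figure D3:**
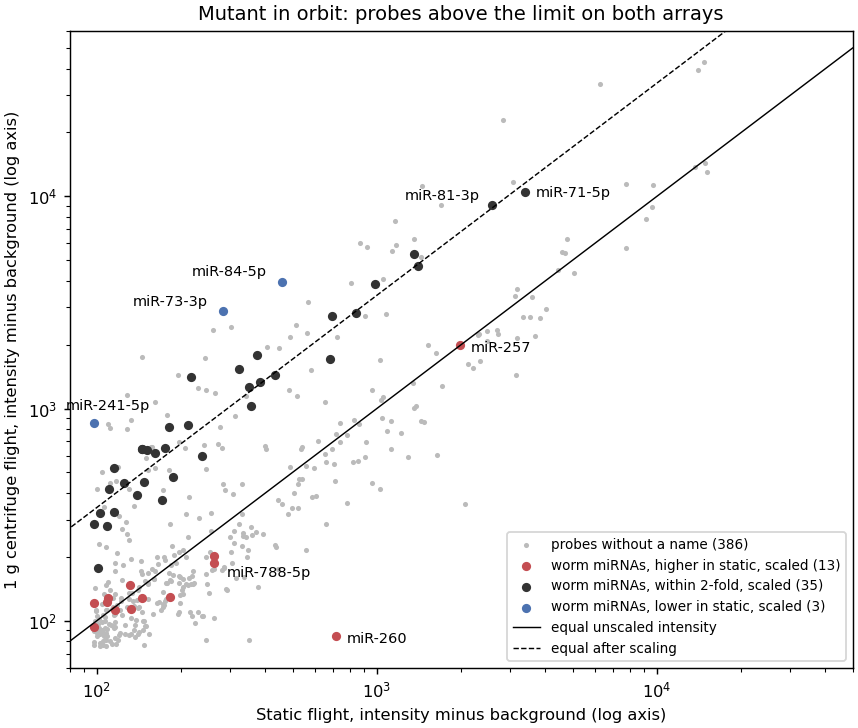
Unscaled intensity of each probe above the limit on both arrays, static flight on the x axis and centrifuge flight on the y axis (both log axes), with grey points for probes without a name and coloured points for worm miRNAs by their scaled difference. The main band of worm miRNAs follows the dashed line of equal scaled level; miR-260 lies far to its right, most other red points lie on the solid line of equal unscaled intensity, and the 3 blue points lie above the band.

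miR-260 was the miRNA with the largest difference. It belongs to a set of worm miRNAs, numbered miR-256 to miR-269 here, that were named largely from computer prediction of hairpins. Its spots read 565, 580, 847 and 940 in static flight, against -53, 83, 86 and 172 in centrifuge flight, so every static spot lay above every centrifuge spot even without scaling. The median was 713.5 in static flight and 84.5 in centrifuge flight, where it stood just above the limit of 75.25. Its unscaled level was 8.44-fold higher in static flight and its scaled level 28.8-fold higher (log2 difference 4.85). Both folds rest on a centrifuge value near the control level. With the mean of the spots, or with the limit at the 99th percentile, the centrifuge value fell under the limit and the difference was a bound of 5.06 or 4.64. The technical SE of 1.71 is large because of the negative centrifuge spot, which was set to 1 for the SE. It ranked 8th in static flight and 82nd in centrifuge flight.

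miR-257, of the same predicted set, was the other bright miRNA outside the main band. Its spots read 1051, 1937, 2024 and 2136 in static flight, against 1435, 1955, 2032 and 2861 in centrifuge flight. These spots overlap, and the medians of 1980.5 and 1993.5 were nearly equal. Its scaled log2 difference was 1.76 (technical SE 0.31), and without scaling it was -0.0094, so the call comes with the scaling. Its rank was 3 in static flight and 10 in centrifuge flight. With its own intensity nearly equal, the better static rank comes with the lower static intensities of other bright miRNAs.

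The other miRNAs called higher were dim. miR-788-5p read 223, 253, 273 and 279 in static flight, against 175, 177, 199 and 200 in centrifuge flight (scaled log2 difference 2.26, technical SE 0.090). It shares with miR-260 that its static spots lay wholly above its centrifuge spots without scaling, and no other miRNA called higher did. miR-269 read 181, 250, 274 and 279 in static flight, against 180, 187, 218 and 238 in centrifuge flight (2.14, technical SE 0.17), and its spots overlap.

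Of the 14 miRNAs called higher, 10 were under 200 on both arrays, 13 were within 2-fold without scaling and 12 had overlapping unscaled spots. miR-353 read 183 in static flight and 130 in centrifuge flight (scaled log2 difference 2.27, technical SE 0.42). miR-75-3p read 132 and 114 (1.98, technical SE 0.45). miR-235-3p, which acts in nutrition-dependent larval arrest, read 97.5 in static flight, at the limit of 97, and 93 in centrifuge flight (1.84, technical SE 0.18). lsy-6, which sets the left-right asymmetry of a pair of taste neurons, read 109.5 in static flight and 127.5 in centrifuge flight (1.55, technical SE 0.20). Its unscaled intensity was the lower one in static flight, so the sign of its difference comes with the scaling. The same held for miR-354, miR-355 and miR-1822-3p, with unscaled log2 differences of -0.17, -0.32 and -0.18. miR-1824-5p and miR-799 had scaled differences of 1.95 and 1.82, and unscaled ones of 0.17 and 0.050. miR-1830-5p had a median of 100 in static flight and 69.5, under the limit, in centrifuge flight. Its scaled static level was thus put at least 4.54-fold higher. The scaled limits themselves, 179 in static flight and 40.7 in centrifuge flight, lie over 2-fold apart. A probe just above both limits is thus called higher through the scaling. miR-1830-5p was among the 91 only through its static value, its unscaled spots overlap, and without it 13 miRNAs were called higher.

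**Figure D4:**
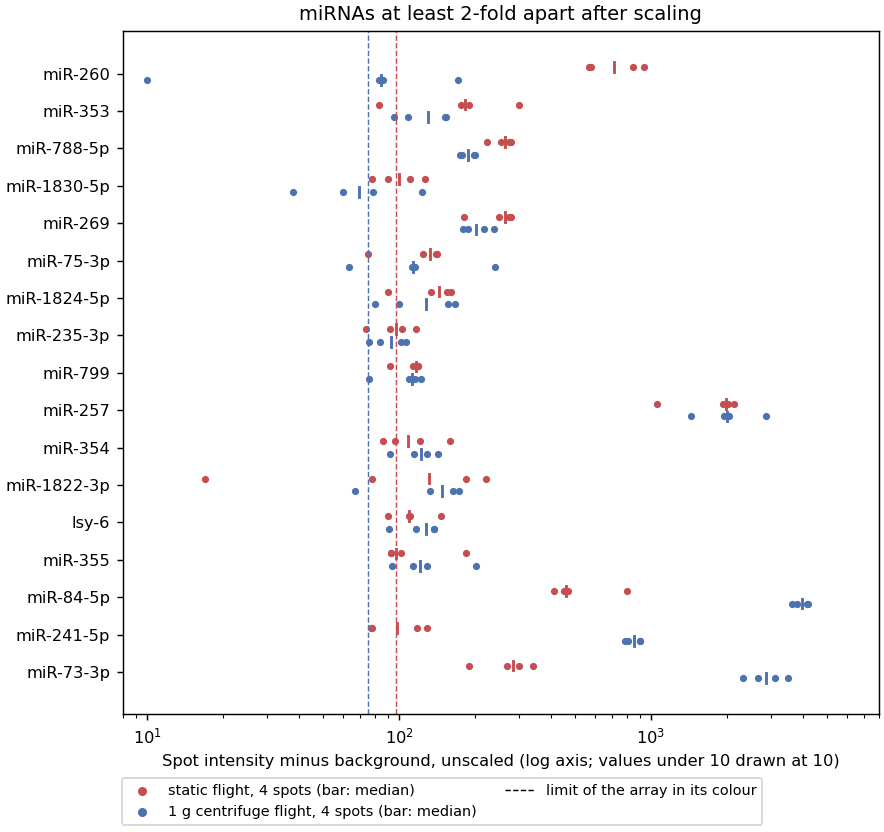
The 4 spots of each miRNA at least 2-fold apart after scaling, in unscaled intensity minus background (log axis), with static flight above centrifuge flight in each row, a bar at each median and a dashed line at the limit of each array. Static and centrifuge spots lie apart for miR-260, miR-788-5p, miR-84-5p, miR-241-5p and miR-73-3p and overlap for the other 12.

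The miRNAs called lower in static flight were miR-73-3p, miR-241-5p and miR-84-5p. For these 3 the static spots lay wholly below the centrifuge spots with and without scaling. miR-73-3p, of the miR-72 family, read 190, 267, 299 and 339 in static flight, against 2325, 2651, 3090 and 3485 in centrifuge flight. Its scaled level was 523 in static flight and 1553 in centrifuge flight (log2 difference -1.57, technical SE 0.22), and its rank 18 and 7. Without scaling its log2 difference was -3.34.

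miR-84-5p and miR-241-5p belong to the let-7 family and act with miR-48 in the passage from the second to the third larval stage. miR-84-5p read 412, 451, 469 and 800 in static flight, against 3634, 3793, 4140 and 4210 in centrifuge flight (-1.34, technical SE 0.22), at ranks 11 and 5. miR-241-5p read 77, 78, 118 and 129 in static flight, against 789, 807, 901 and 902 in centrifuge flight (-1.35, technical SE 0.20). Its static median of 98 lay only just above the limit of 97, and its ranks were 49 and 19.

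miR-230-3p came next, with 1, 212, 223 and 367 in static flight against 1193, 1388, 1430 and 1854 in centrifuge flight (-0.92, technical SE 2.02). Its lowest static spot sets that SE. miR-85-3p (-0.48, technical SE 0.17), miR-63-3p (-0.39, technical SE 0.12) and miR-72-5p (-0.40, technical SE 0.19) were within 2-fold. Of these, miR-63-3p had scaled static spots wholly below its scaled centrifuge spots. Among the 51, miR-241-5p, miR-39-3p, miR-56-3p and miR-73-3p lost the most ranks, followed by miR-238-3p and miR-83-3p with equal losses. miR-39-3p, miR-56-3p, miR-238-3p and miR-83-3p stood at ranks 40, 49, 46 and 42 in static flight against 28, 37, 36 and 32 in centrifuge flight. miR-37-3p exceeded the limit in centrifuge flight alone, at 438 against 52.5 in static flight, and its scaled level was at least 1.32-fold lower in static flight. miR-234-3p read 77.5 in static flight and 387 in centrifuge flight, and these were the only miRNAs above the centrifuge limit alone whose scaled centrifuge level exceeded the scaled static limit. miR-35-3p (52 and 301), miR-237-5p of the lin-4 family (88 and 233.5) and the glial miR-228-5p (61.5 and 203.5) were likewise dim in static flight, and their scaled direction is not known.

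The let-7 family drives the larval-to-adult timing programme. Of its 7 probes 6 were among the 91 and 5 exceeded both limits; 0 were called higher and 2 lower, where 5.88% of all 51 were called lower. Its median scaled log2 difference over the 5 was -0.48, against 0.11 over all 51, and its members ran from -1.35 to -0.17. The 51 include the 13 miRNAs called higher, most of them dim. Unscaled, the family median was -2.25. Over the 18 miRNAs at 1000 or more in centrifuge flight, some of them let-7 members, it was -1.84. The lower quartile of all 51 was -0.21, so miR-48-5p and miR-793 lay near or above it. let-7-5p itself read 287, 300, 344 and 405 in static flight, against 1333, 1426, 1638 and 1660 in centrifuge flight (-0.48, technical SE 0.14). miR-48-5p, the brightest member, read 1104, 1269, 1438 and 1621 in static flight, against 5105, 5236, 5486 and 5718 in centrifuge flight (-0.21, technical SE 0.12). The scaled spots of both overlap. miR-793 read 161.5 and 620 (-0.17, technical SE 0.28). miR-795-5p exceeded the limit in centrifuge flight alone, at 243 against 48.5 in static flight.

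The miR-72 family had all 3 members above both limits, 0 called higher and 1 lower, with a median of -0.40. Of all 51, 25.5% were called higher and 5.88% lower. miR-72-5p and miR-74-3p differed by -0.40 and -0.38, so within this family miR-73-3p stood apart from the others. For miR-74-3p the unscaled spots overlap, since 1 centrifuge spot read 136 and the others 634 to 656.

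Other families held values nearer the middle of the band. The miR-58/bantam family had 4 of 5 members above both limits, a median of 0.034 and a range from -0.054 to 0.44. Its members miR-82-3p and miR-80-3p differed by 0.022 (technical SE 0.13) and 0.046 (technical SE 0.12). miR-58-3p, at 0.44 (technical SE 0.11), read 679 in static flight and 1713 in centrifuge flight. The miR-44 family had 2 of 3 probes above both limits. The probe for both miR-44-3p and miR-45-3p (miR-44-3p/miR-45-3p) read 982 in static flight and 3865.5 in centrifuge flight (-0.20, technical SE 0.093). miR-61-3p, which acts in vulval cell fate, read 839.5 and 2820.5 (0.024, technical SE 1.03), with 1 static spot at 52 and the others from 804 to 973.

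The group miR-63 to miR-66 and miR-229 had 4 of 5 probes above both limits, with a median of -0.21 and a range from -0.39 to -0.037. The miR-51 family, expressed in most tissues, had 3 of 6 with a median of 0.23 and a range from 0.22 to 0.28. The miR-50 family had 2 of 3 with a median of 0.095. In each of these 3 groups 0 members were called higher and 0 lower. Over all 51 the shares were 25.5% and 5.88%, and with so few members 0 calls say little against them. The miR-35 family, required in embryos, had 6 of 8 probes among the 91 but 2 above both limits, with a median of 0.019. Its brightest member in static flight, miR-38-3p, read 237 there and 595 in centrifuge flight.

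The smaller families were mostly dim. Of the miR-75/miR-79 pair, miR-75-3p was above both limits and, as given above, was called higher. The 4 probes of the miR-2 family and both probes of the miR-232/miR-357 pair had 0 members among the 91, and miR-86 and miR-785 exceeded the limit in centrifuge flight alone. Of the miR-238/miR-239 group, only miR-238-3p was among the 91, at 102.5 in static flight and 323.5 in centrifuge flight (0.11).

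The ageing and stress list had 4 of 8 probes above both limits, with a median of 0.13 and 0 calls in either direction. Of all 51, 25.5% were called higher and 5.88% lower. miR-34-5p, known from the response to DNA damage, read 135, 170, 171 and 173 in static flight, against 351, 365, 373 and 396 in centrifuge flight (0.66, technical SE 0.093). Its scaled static spots lay wholly above its scaled centrifuge spots, though the difference was under 2-fold; unscaled it was -1.11, against a median of -1.66 over all 51.

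The predicted list, miR-256 to miR-269, had 13 probes, of which 8 were among the 91 and 3 exceeded both limits. All 3 of these, miR-257, miR-260 and miR-269, were called higher, where 25.5% of all 51 worm miRNAs and 80.1% of the probes without a name were. Their median was 2.14 scaled and 0.37 unscaled. The list of later numbers, from miR-784-5p up, had 38 probes, of which 17 were among the 91 and 5 above both limits; 5 were called higher, among them the bound for miR-1830-5p, and 0 lower. Over all 91, 15.4% were called higher, and over the probes without a name 57.4%. The median over the 5 above both limits was 1.82 and unscaled 0.050. Members of both lists were mostly dim, with medians over all their probes of 63 and 68.5 in static flight and of 81 and 60.25 in centrifuge flight, near the limits of 97 and 75.25. On the scaled level these limits were 179 and 40.7, so a probe just above both was called higher through the scaling. The part of signal near the control level in these values was not tested.

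**Figure D5:**
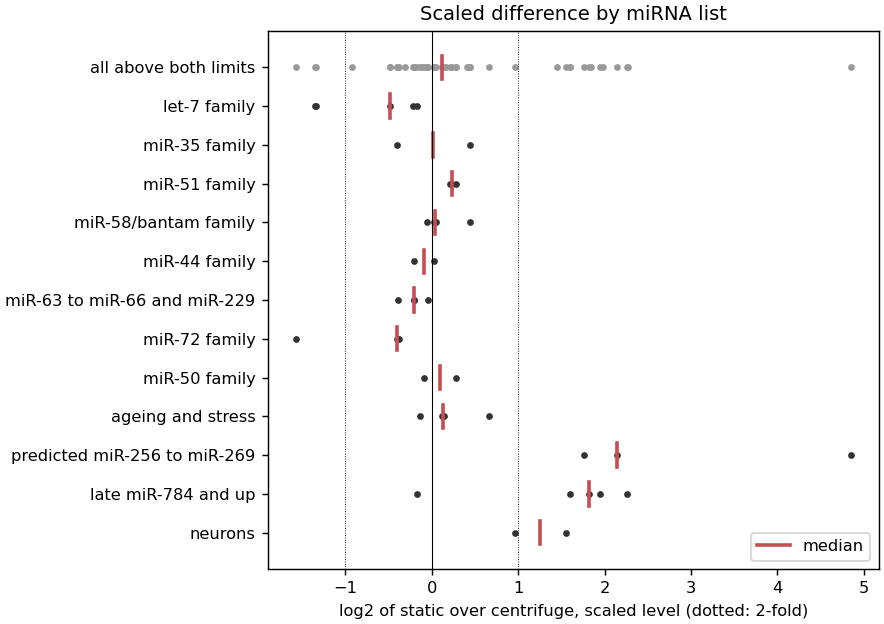
Scaled log2 of static over centrifuge for the miRNAs above both limits, all 51 in the top row and each list with at least 2 such members below, with a red bar at each median and dotted lines at 2-fold. The let-7 and miR-72 families have medians of -0.48 and -0.40, the predicted and late-numbered lists 2.14 and 1.82.

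Of the miRNAs tied to a tissue, the muscle miRNA miR-1-3p read 187 in static flight and 474 in centrifuge flight (0.43, technical SE 0.27). The neuronal miR-124-3p read 101 in static flight, just above the limit, and 177 in centrifuge flight (0.96, technical SE 0.28). The neuronal probes miR-791-3p and miR-273 did not exceed the limit on either array. The intestinal miR-60-3p read 13.5 in static flight and 59 in centrifuge flight, under both limits. lin-4-5p, the founding timing miRNA, read 175.5 and 650.5 (-0.12, technical SE 0.19).

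The sample records give a delay of 2 days for the ground groups. The ground array of the mutant, with its wide spot spread, gave further levels for the miRNAs that stood out. Unscaled, miR-260 read 130.5 there, under the ground limit of 150, and miR-257 read 201. miR-73-3p read 1286.5, miR-84-5p 1470.5 and miR-241-5p 95.5.

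In the wild type N2, the same contrast was dim. The N2 slots had the same doses, 1.92 and 2.27 mGy, and the N2 arrays stand in another raw table. Of N2 worm probes, 23 exceeded the limits of 14 in static flight and 20 in centrifuge flight on both arrays. The brightest read 505 in static flight and 479 in centrifuge flight. Over the 23 the medians were 49.5 in static flight and 72.5 in centrifuge flight. miR-257 read 505 in static flight and 248.5 in centrifuge flight in N2, a scaled log2 difference of 1.57. miR-260 read 8.5 and -14, under both limits. miR-73-3p read -71.5 in static flight, under the limit, and 54 in centrifuge flight, a bound on the scaled log2 difference of -1.40. Several probes on the N2 static array read far below 0, among them miR-75-3p at -308.5 and miR-39-3p at -219. After scaling, miR-257 had in N2 the direction it had in the mutant, though its unscaled difference in the mutant was -0.0094. So did miR-73-3p, but only as a bound from a static value under 0. Others called in the mutant did not: miR-788-5p (-0.24), miR-799 (-0.32) and, as a bound, miR-354 (-0.17) were below 0 in N2, where miR-235-3p, also as a bound, was at -1.34. miR-1822-3p (0.83), miR-1824-5p (0.31) and, as a bound, miR-355 (0.78) were above 0 but within 2-fold. miR-84-5p, called lower in the mutant, read 94.5 and 76.5 (0.86), and miR-241-5p read -231.5 and 4, under both limits. The difference between the strains in these values was not tested.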

How the data were processed

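The members and lists were chosen with earlier results of these data known. Per the file headers, the authors' raw tables hold spot intensity before and after subtraction of local background. A deposited expression table holds intensity per probe, which equals the spot median on 2314 of 2314 probes of each flight array (tolerance 0.01). It also holds the authors' normalized intensity, which is that value divided by 116.5 in static flight and 286.5 in centrifuge flight; how these divisors were set is not stated in the sources used. Samples were matched by their descriptions, with which the column labels of the series value table conflict, so that table and 23 further value columns were not used.

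The median of 4 spots was taken per probe, and the limit was the 95th percentile over spots of control probes. Levels were scaled on the median over worm miRNAs above both limits, floored at the scaled limit and compared as log2 of static over centrifuge. A bound counted in its own direction only. Named were the 10 brightest per array, up to 10 largest differences each way, the 5 largest rank gains and losses, listed miRNAs and those nearest the limit. With 1 array per condition no test was run, and the number of arrays limits precision. The method was tested on simulated data. The simulation used the 51 miRNAs above both limits at raised levels, so it says little about calls near the limit. Python 3.11.15, pandas 2.3.3 and, for the normexp alternative (offset 50), limma 3.58.1 in R 4.3.3 were used. Alternatives changed the spot summary, scaling, background, limit, floor and detection. Passenger strands miR-56-5p and miR-80-5p were left out of lists. RefSeq WBcel235 named 143 of 154 worm probes and gave neighbours. Mature sequences were not used here.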

Additional observations from a re-analysis of the deposited data

Results flagged for a closer look

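miR-235-3p had scaled differences of opposite sign in the strains between static and centrifuge flight. In the mutant its scaled log2 difference was 1.84, from 97.5 in static flight and 93 in centrifuge flight. Unscaled, the mutant difference was 0.068, the spots ran from 74 to 117 in static flight and from 76 to 106 in centrifuge flight and overlap, and the call was kept under 10 of 17 alternatives. In N2 it was -1.34, a bound, from -46 in static flight, under the limit of 14, and 52 in centrifuge flight. Each strain has 1 array per condition, and the difference was not tested.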

How the results depend on the processing

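The counts of 14 higher and 3 lower depended most on the scaling. They were 1 and 43 with no scaling, 1 and 43 with scaling on the probes without a name, and 8 and 6 under quantile normalization. With a floor of 50 the higher count was 33, and with the limit at the 99th percentile it was 9 of 77. With scaling on the 8 worm probes at 50 or more on all 6 arrays the lower count was 1, as miR-84-5p (-0.93) and miR-241-5p (-0.95) came within 2-fold. With each spot left out in turn the counts ran from 11 to 16 higher and from 3 to 4 lower, and the rank correlation from 0.70 to 0.75. miR-257 turned to -0.0094 with no scaling. miR-260 (3.08 to 6.01) and miR-73-3p (-3.34 to -1.16) kept their call under 17 of 17 alternatives, among them scaling on miRNAs at 300 or more, which was chosen after seeing the data. The mean of the spots, normexp, control-level subtraction, 75th percentile scaling and the authors' values left both counts within 1.5 times. miR-235-3p lost its call under 7 of 17. Scaling moved the median over miRNAs above both limits from 0.11 to between -1.66 (no scaling) and 0.52 (the 8 probes). No paired analysis was possible because each condition has 1 array. Signals near the control limit bound 37 of 91 miRNAs without a direction.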

Other observations

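The share of worm signal above the limit was spread differently on the arrays. The 5 brightest miRNAs held 58.3% of it in static flight and 47.2% in centrifuge flight. miR-71-5p held 18.8% and 14.8%, miR-257 10.8% and 2.72%, and miR-260 3.52% and 0.013%. miR-84-5p held 2.07% in static flight and 5.52% in centrifuge flight, and miR-73-3p 1.06% and 3.96%.

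Among the 51 miRNAs above both limits, 6 pairs have genes within 1000 bases of each other in RefSeq WBcel235. Their scaled differences were apart by a median of 0.17 on the log2 scale, against 0.93 over all 1275 pairs. Pairs share genes, so this is a description. The 1275 pairs include the 13 miRNAs called higher, and the neighbour pairs include none of them, so both sets differ in more than gene position. miR-64-5p, miR-65-5p and miR-66-5p lay at -0.21, -0.037 and -0.20, and miR-55-3p and miR-56-3p at 0.23 and 0.22. The neighbours miR-73-3p and miR-74-3p were the widest apart, at -1.57 and -0.38.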
